A study of Mus musculus with 4 samples.

Results

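The 10 genes described here are classic transcriptional targets of the coactivators YAP and TAZ: Ccn1, Ccn2, Ankrd1, Amotl1, Amotl2, Ajuba, Axl, Crim1, Ptpn14 and F3. They were chosen by symbol, as known targets, and all 10 were found among the 32285 genes of the files, of which 26537 had at least 1 UMI (a random tag that marks 1 captured molecule) in the cells kept. Their levels were read in 13739 cells of dissociated whole mouse noses, taken at embryonic day 14.5 and run as single cells in droplets, first across cell types and then between 2 control and 2 mutant libraries. The titles call the controls wild type. Their sample labels give the strain C57Bl/6J as genotype, whereas the series design gives both Yap and both Taz alleles as floxed with no Cre, and this disagreement was not settled. The mutants carry the transgene Tg(Sox10-cre)1Wdr, with Yap floxed on 1 allele and wild type on the other and Taz floxed on both alleles, per the series design. Sox10-Cre recombines in the neural crest lineage, whereas epithelium, endothelium and macrophages are mostly of other origin, and by the series design 1 intact Yap allele remains in every mutant cell. The floxed alleles are shared with the controls under the series design and not under the sample labels.

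YAP (gene Yap1) and TAZ (gene Wwtr1) are held in the cytoplasm when the Hippo kinases are active, and enter the nucleus on stretching, spreading or low density of cells. There they bind TEAD transcription factors, which recognise the DNA letters CATTCC, and raise the transcription of a small set of genes used across tissues as a readout of the pathway. Ccn1 and Ccn2 encode secreted matricellular proteins. Amotl1, Amotl2, Ajuba and Ptpn14 encode proteins that act back on the pathway, the angiomotins and Ptpn14 by holding YAP out of the nucleus and Ajuba by holding back the Hippo kinase Lats. Axl (a receptor tyrosine kinase), Crim1 (a transmembrane regulator of BMP ligands) and F3 (tissue factor, the starter of blood clotting) act at the cell surface, and Ankrd1 is a stretch-responsive cofactor of muscle.

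The promoters are shown because TEAD letters there are the sequence through which YAP and TAZ are known to act. RefSeq sequences of the 250 bases before the transcription start (build GRCm38.p6) were matched by symbol for 9 of the 10 genes. CATTCC or its reverse complement GGAATG was found in 7 of these 9 windows: Ptpn14, Ccn1, Axl, Amotl2, Ajuba, Crim1 and Ankrd1, with 2 copies in Ajuba and 2 in Ankrd1. It was present in 12.6% of all 32851 promoter windows of that length. The AP-1 letters TGANTCA, which read the same on both strands, were found in F3 alone, 2 times, against 6.75% of all windows. F3 and Amotl1 held no copy of the TEAD letters in this window. The 6 windows that overlap no exon of their own gene in GENCODE M21 are printed 5′ to 3′ on the gene's strand, with motif letters in capitals. The F3 and Crim1 windows overlap exons of the predicted genes Gm43823 and AC154366.4. Their positions are chr3:145649986-145650235 for Ccn1 (minus strand), chr14:54577662-54577911 for Ajuba (minus), chr1:189728018-189728267 for Ptpn14 (plus), chr7:25788734-25788983 for Axl (minus), chr17:78199998-78200247 for Crim1 (plus) and chr3:121723287-121723536 for F3 (plus). For Amotl2, the gene on which the comparison of mutants with controls turns, the 30 bases round its site are given (chr9:102717727-102717756, plus strand), since its window overlaps an Amotl2 exon.
Ccn1: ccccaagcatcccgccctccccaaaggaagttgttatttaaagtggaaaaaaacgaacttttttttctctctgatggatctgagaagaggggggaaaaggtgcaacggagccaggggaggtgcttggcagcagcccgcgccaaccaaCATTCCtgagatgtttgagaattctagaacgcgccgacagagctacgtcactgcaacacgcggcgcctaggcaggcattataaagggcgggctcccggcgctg
Ajuba: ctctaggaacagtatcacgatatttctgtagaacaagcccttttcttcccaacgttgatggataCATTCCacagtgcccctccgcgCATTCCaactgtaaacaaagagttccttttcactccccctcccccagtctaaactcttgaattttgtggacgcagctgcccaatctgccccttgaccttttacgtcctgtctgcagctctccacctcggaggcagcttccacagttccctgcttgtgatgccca
Ptpn14: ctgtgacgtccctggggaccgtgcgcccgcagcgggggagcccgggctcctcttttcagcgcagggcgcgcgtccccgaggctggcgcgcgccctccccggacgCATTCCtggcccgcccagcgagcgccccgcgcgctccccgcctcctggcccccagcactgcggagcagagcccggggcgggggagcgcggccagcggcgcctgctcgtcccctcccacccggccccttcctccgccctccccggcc
Axl: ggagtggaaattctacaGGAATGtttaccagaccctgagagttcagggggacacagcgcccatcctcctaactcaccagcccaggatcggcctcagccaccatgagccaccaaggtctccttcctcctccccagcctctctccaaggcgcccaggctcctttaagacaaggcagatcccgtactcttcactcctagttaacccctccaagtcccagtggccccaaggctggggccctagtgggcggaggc
Crim1: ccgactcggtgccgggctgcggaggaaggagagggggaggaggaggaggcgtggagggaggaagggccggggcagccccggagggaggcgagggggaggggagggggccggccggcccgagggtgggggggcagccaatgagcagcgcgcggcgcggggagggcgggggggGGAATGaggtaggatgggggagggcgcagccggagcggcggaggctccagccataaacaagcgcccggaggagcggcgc
Amotl2: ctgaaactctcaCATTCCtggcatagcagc
F3: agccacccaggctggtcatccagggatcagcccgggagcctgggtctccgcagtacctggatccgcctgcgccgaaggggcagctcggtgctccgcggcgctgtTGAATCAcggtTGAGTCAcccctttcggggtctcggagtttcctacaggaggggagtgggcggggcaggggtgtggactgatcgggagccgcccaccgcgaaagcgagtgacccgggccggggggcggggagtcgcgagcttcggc
Measured from the transcription start, the letters lay at -103 to -98 in Ccn1, at -65 to -60 in Amotl2, at -146 to -141 in Ptpn14, at -233 to -228 in Axl and at -79 to -74 in Crim1. The copies of Ajuba began at -186 and -164, and the AP-1 letters of F3 at -146 and -135. A match of letters is a description and was not tested as a binding site.

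Cells were sorted into types by marker genes, none of which is a target gene described here, and are called by the marker list they passed. The gates gave 9791 mesenchyme-like cells (71.3% of all), 813 keratinocyte-like, 599 osteoblast-like, 478 chondrocyte-like, 426 simple nasal epithelium-like, 270 macrophage-like, 212 endothelial-like, 132 mural-like (pericytes and vascular smooth muscle) and 124 glia-like cells. Each of these 9 types had at least 20 cells in every library and was tested. Skeletal muscle-like cells, at 26, 20, 14 and 11 in control 1, control 2, mutant 1 and mutant 2, were too few and are described only. That order of libraries is kept in all lists of 4 values. The osteoblast gate was the loosest, since 262 of its 599 cells carried no more than the minimum of 3 markers. In mutant 2 alone, 47 cells passed the endothelial and chondrocyte gates together. Cells were left in no type only if the second gate's share of markers reached 75% of the best, and otherwise stayed in the best type. With all cells passing several gates left out, mutant 2 went from 175 to 163 chondrocyte-like and from 87 to 73 endothelial-like cells. Levels are UMIs per 1000000 UMIs summed over the cells of a type in a library (CPM). Library depths ranged from 19767873 to 35331450 UMIs in the cells kept, and the median cell held 7033, 6878.5, 8549 and 5282 UMIs. Between 3 and 5 cell barcodes were shared by any pair of libraries.

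Across types the target genes were not all highest in the same type. Their highest mean levels lay in chondrocyte-like cells (Ccn1, Ccn2, Amotl2), keratinocyte-like cells (Ajuba, Ptpn14, Crim1), endothelial-like cells (Amotl1), mural-like cells (Axl), simple nasal epithelium-like cells (F3) and skeletal muscle-like cells (Ankrd1). In a fit of all 36 sums of library and type, 54 of 81 contrasts of a type with the mean of the other types passed an edgeR adjusted p of 0.05, 31 of them higher and 23 lower. Over all 12584 genes of that fit 38.4% of the contrasts passed. Ankrd1 did not pass the filter on low counts, so these are counts over the other 9 genes and a description of them. Macrophage-like cells were the type in which most targets were low, with 8 of 9 passing as lower, against 27.2% of all genes. Keratinocyte-like cells were the type in which most were high. There 7 of 9 passed as higher, against 28.7% of all genes, and 2 (Ccn2 and Axl) passed as lower, against 19.4%. Of the 54 calls, 19 were lost under at least 1 alternative setting, and the contrasts given with a test below are among the other 35 unless stated.

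**Figure D1:**
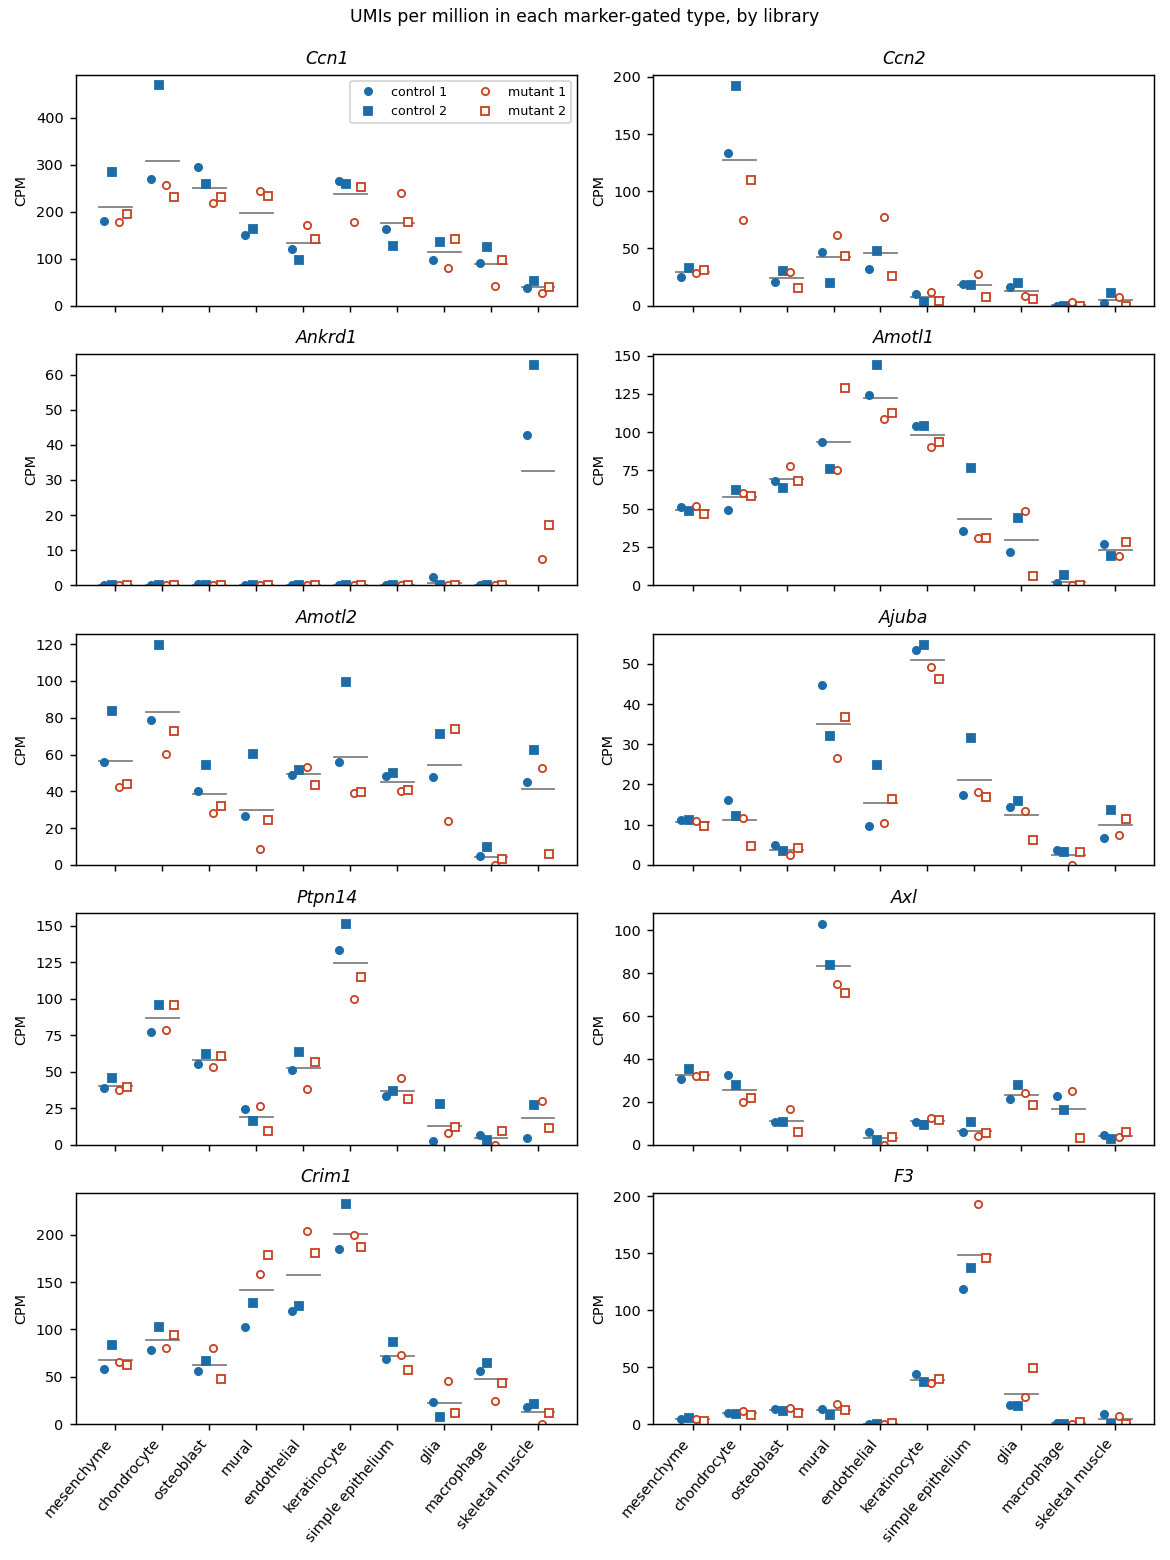
Level of each of the 10 target genes (vertical axis, CPM, linear from 0, a separate scale per gene) in 9 tested types and in skeletal muscle-like cells, with 1 point per library (filled, controls; open, mutants; circles, replicate 1; squares, replicate 2) and a line at the mean of the 4 libraries. F3 stands highest in simple nasal epithelium, Axl in mural cells, Ccn2 in chondrocytes, Ankrd1 in skeletal muscle, and Ajuba, Ptpn14 and Crim1 in keratinocytes.

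**Figure D2:**
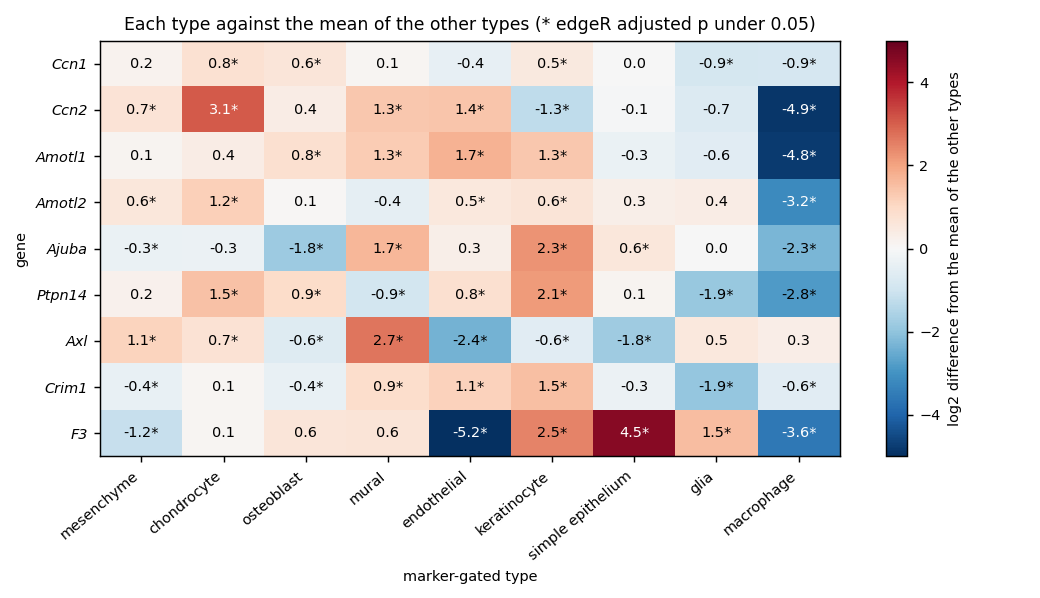
Log2 difference of each type from the mean of the other 8 types (colour and number) for the 9 targets that passed the filter, with an asterisk where the edgeR adjusted p is under 0.05. Macrophage-like cells are low and keratinocyte-like cells high for most targets, whereas the type in which a target is highest differs between genes.

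Ccn1 (ENSMUSG00000028195, chromosome 3, 145646976 to 145649981, GRCm38) was broadly present. Its level in chondrocyte-like cells was 270, 470, 258 and 232 CPM, and the 4 libraries there spread more than in any other tested type. It stood 0.77 ± 0.15 (SE) above the mean of the other types on the log2 scale in chondrocyte-like cells, with an edgeR adjusted p of 1.1e-04. In macrophage-like cells, at 91.1, 125, 42.5 and 97.8 CPM, the log2 difference was -0.85 ± 0.20 (adjusted p 4.2e-04). In the order of mean levels, from chondrocyte-like through osteoblast-like, keratinocyte-like, mesenchyme-like, mural-like, simple nasal epithelium-like, endothelial-like and glia-like to macrophage-like cells, no type differed from its neighbour beyond the spread of the libraries.

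Ccn2 (ENSMUSG00000019997, chromosome 10, 24595442 to 24598683), whose product organises cartilage matrix, was highest in chondrocyte-like cells. There it measured 134, 192, 75.3 and 109 CPM, a mean of 128 ± 49.4 CPM (SD, n = 4 libraries). These cells held 14.1% of all Ccn2 UMIs, and the far more numerous mesenchyme-like cells 64.5%. Endothelial-like, mural-like and mesenchyme-like cells also passed as higher than the mean of the other types (log2 differences 1.39 ± 0.29, 1.35 ± 0.39 and 0.68 ± 0.21). Keratinocyte-like and macrophage-like cells passed as lower. How these calls stood under alternative settings is not given here. The next type, endothelial-like cells, held 32.2, 47.9, 77.6 and 26.0 CPM. The log2 difference between these types was 1.48 ± 0.27, with an edgeR adjusted p of 1.8e-05, although the lowest chondrocyte-like value lay just under the highest endothelial-like value. Mural-like (42.9 CPM), mesenchyme-like (29.5), osteoblast-like (23.9), simple nasal epithelium-like (18.2), glia-like (12.7) and keratinocyte-like cells (7.48) followed, with no neighbouring pair past the threshold. In macrophage-like cells 2 Ccn2 UMIs were found, both in mutant 1. Ccn2 was unevenly spread within mesenchyme-like cells, where 10.2, 10.8, 13.0 and 10.0% of cells had a UMI and a single cell held up to 24. Of macrophage-like cells, with a median of 7520 to 10396 UMIs per library against 5006 to 8204.5 in mesenchyme-like cells, 4.08% in mutant 1 had a Ccn2 UMI. None had one in the other 3 libraries, which allows shares of cells with a UMI of up to 3.90%, 4.92% and 3.61% by counting error alone and sets no limit on cells that express the gene. Thinned to 2000 UMIs a cell, with 60, 42, 58 and 70 shallower mesenchyme-like cells left out, the shares with a Ccn2 UMI were 4.56, 4.04, 4.16 and 5.19%.

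Ankrd1 (ENSMUSG00000024803, chromosome 19, 36111961 to 36120099), a stress-responsive protein of muscle, had 56 UMIs in all 13739 cells, and 83.9% of them lay in skeletal muscle-like cells. In that gate it was found in 7 of 26, 7 of 20, 1 of 14 and 2 of 11 cells. Its level there was 42.8, 62.7, 7.52 and 17.1 CPM, from 19, 23, 2 and 3 UMIs. Both mutant libraries lay below both controls in muscle-like cells. The ratio of mutant to control counts, each divided by the total UMIs of these cells in the group, was 0.219. Its exact 95% interval was 0.068 to 0.552 (counting error only), and with so few cells it was not tested between libraries. The summed markers of the muscle gate stood at 4776 and 7423 CPM in controls against 8534 and 2598 CPM in mutants. They were highest in mutant 1 and lowest in mutant 2, and their part in the Ankrd1 values was not tested. Keratinocyte-like, simple nasal epithelium-like, chondrocyte-like, endothelial-like, mural-like and macrophage-like cells held no Ankrd1 UMI.

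Amotl1 (ENSMUSG00000013076, chromosome 9, 14541966 to 14645056), an angiomotin that ties YAP to cell junctions, was highest in endothelial-like cells, at 124, 144, 109 and 113 CPM. Keratinocyte-like cells (104, 104, 90.1 and 93.7 CPM) and mural-like cells (93.8, 76.0, 75.1 and 129 CPM) came next. Endothelial-like cells differed from keratinocyte-like cells by 0.35 ± 0.17 on the log2 scale, which missed the threshold (edgeR adjusted p 0.082). All 3 types stood above the mean of the others, by 1.74 ± 0.15, 1.34 ± 0.14 and 1.25 ± 0.21. Macrophage-like cells held 5 UMIs of Amotl1 in all.

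Amotl2 (ENSMUSG00000032531, chromosome 9, 102716672 to 102733418), the second angiomotin, was more even across types. Chondrocyte-like cells were highest, at 78.6, 120, 60.2 and 73.0 CPM, 1.18 ± 0.14 above the mean of the other types (log2, edgeR adjusted p 1.0e-08) and 0.47 ± 0.16 above keratinocyte-like cells (adjusted p 0.014). Mesenchyme-like and keratinocyte-like cells also passed as higher, by 0.56 ± 0.11 and 0.65 ± 0.12, as did endothelial-like cells (0.51 ± 0.16), whose call some alternative settings lost. From keratinocyte-like to mural-like cells no neighbouring pair in the order differed past the threshold. Macrophage-like cells were low, at 4.99, 9.74, 0 and 3.11 CPM.

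Ajuba (ENSMUSG00000022178, chromosome 14, 54567472 to 54577558), a LIM-domain protein of cell junctions, was high in keratinocyte-like cells, at 53.4, 54.7, 49.3 and 46.1 CPM, and in mural-like cells, at 44.7, 32.0, 26.5 and 36.9 CPM. The ranges of these types did not overlap, but their log2 difference of 0.53 ± 0.24 missed the threshold (edgeR adjusted p 0.078). Osteoblast-like and macrophage-like cells were lowest, at means of 3.75 and 2.52 CPM. Ptpn14 (ENSMUSG00000026604, chromosome 1, 189728268 to 189876695), a tyrosine phosphatase that binds YAP, was also led by keratinocyte-like cells, at 133, 151, 99.8 and 115 CPM. It was 0.60 ± 0.16 higher there than in chondrocyte-like cells (adjusted p 0.0021), which in turn stood 0.48 ± 0.17 above osteoblast-like cells (adjusted p 0.045). Glia-like cells held 2.39, 27.8, 8.04 and 12.3 CPM of Ptpn14, and passed as lower, with a log2 difference of -1.88 ± 0.37 from the other types (adjusted p 1.5e-04).

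Axl (ENSMUSG00000002602, chromosome 7, 25757273 to 25788705) was highest in mural-like cells. In mural-like cells it measured 103, 84.1, 75.1 and 70.6 CPM, and in mesenchyme-like cells 30.7, 35.1, 31.9 and 31.9 CPM. The types did not overlap, and their log2 difference was 1.41 ± 0.21 (edgeR adjusted p 3.0e-06). Chondrocyte-like and glia-like cells followed at means of 25.4 and 23.0 CPM. Mesenchyme-like cells did not differ from chondrocyte-like cells past the threshold (0.33 ± 0.21, adjusted p 0.335). Endothelial-like cells, the neighbours of mural cells in the vessel wall, had 12 Axl UMIs in all and passed as lower, with a log2 difference of -2.36 ± 0.36 (adjusted p 1.4e-06). Crim1 (ENSMUSG00000024074, chromosome 17, 78200248 to 78376592) was highest in keratinocyte-like cells, at 185, 232, 200 and 187 CPM, followed by endothelial-like cells at 120, 125, 203 and 181 CPM and mural-like cells at 103, 128, 159 and 178 CPM. These 3 types did not differ from their neighbours in the order past the threshold, and the step from mural-like to chondrocyte-like cells did (0.69 ± 0.22, adjusted p 0.016). Glia-like cells had the lowest mean of Crim1, 22.4 ± 16.8 CPM (SD, n = 4 libraries).

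F3 (ENSMUSG00000028128, chromosome 3, 121723537 to 121735048) was highest in simple nasal epithelium-like cells. Keratinocyte-like and glia-like cells also passed as higher than the mean of the other types (log2 differences 2.49 ± 0.17 and 1.53 ± 0.36). How these calls of F3 stood under alternative settings is not given here. Simple nasal epithelium-like cells held 119, 137, 193 and 146 CPM and 46.5% of all F3 UMIs, although they were 426 of 13739 cells. Keratinocyte-like cells followed at 43.6, 36.8, 36.1 and 39.7 CPM, a log2 difference of 1.83 ± 0.15 (edgeR adjusted p 1.9e-12). Endothelial-like cells had 1 F3 UMI in all 4 libraries. Of the simple nasal epithelium-like cells 54.1, 46.9, 55.5 and 45.8% had an F3 UMI, at median depths of 14199, 7850.5, 14252 and 8712 UMIs. Of macrophage-like cells, at median depths of 9429, 8383, 10396 and 7520 UMIs, 1 of 77, 0 of 61, 0 of 49 and 1 of 83 had one. Mesenchyme-like cells had one in 2.83, 3.37, 3.22 and 1.71%. Thinned to 2000 UMIs a cell, with 3, 0, 5 and 8 shallower epithelial cells left out, the epithelial shares were 20.8, 21.9, 26.3 and 18.7% and the mesenchyme-like shares 0.905, 1.04, 1.04 and 0.631%. The richest epithelial cell held 40 F3 UMIs.

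Across the 36 sums of library and type, taken as log2(CPM + 10) and centred within each library, the genes most like each target were read as a description. F3 was closest to Sox2 (Pearson r = 0.93), a transcription factor of epithelial progenitors, and to the unconventional and non-muscle myosins Myo5b (0.92) and Myh14 (0.91). Ccn2 was closest to Foxc1 (0.90), Csrp2 (0.88) and Gmds (0.86). Among the genes most like Axl were S1pr2 (0.86) and Arhgap10 (0.86). Ptpn14 was closest to Rflnb (0.89), H19 (0.85) and Arfgef1 (0.81), and Ajuba to Purb (0.87), Bcam (0.84) and Nckap5 (0.84). Amotl1 was closest to Nhsl1 (0.88), Map4k3 (0.88) and Arhgap29 (0.87), and Amotl2 to Ehmt1 (0.89), Yeats2 (0.87) and Zfp462 (0.87). Ccn1 was closest to Sdc1 (0.83), Tgfb3 (0.82) and Tpm1 (0.81), and Crim1 to Fblim1 (0.81), Fryl (0.81) and Macf1 (0.79). No target was among the 3 most alike genes of another. Between targets the highest r was 0.72, for Ccn1 with Ptpn14, followed by 0.69 for Amotl1 with Crim1. The lowest was -0.30, for Axl with Ptpn14. The 36 points share libraries, depth and the same 9 types, and the r values carry no test.

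The mutant libraries were then set against the controls. Over all cells no target passed (0 of 10 tested, edgeR adjusted p of at least 0.909). In that comparison 0.0% of 18080 genes passed. At an unadjusted p under 0.05 there were 2 targets, Ankrd1 and Amotl2, against 4.88% of all genes, and DESeq2 called none. Within the 9 types, 0 of 62 tests of targets passed, against 0.144% of all tests. There, 12 of 62 had an unadjusted p under 0.05 (19.4%, against 5.8% of all tests), 8 of them lower and 4 higher in mutants, and DESeq2 called 1. By type, the share of all genes that passed was 0.0% in chondrocyte-like, glia-like and osteoblast-like cells, 0.0087% in simple nasal epithelium-like, 0.0125% in mesenchyme-like, 0.0614% in keratinocyte-like, 0.107% in endothelial-like, 0.183% in macrophage-like and 1.76% in mural-like cells. The share at an unadjusted p under 0.05 was 3.08% in simple nasal epithelium-like, 4.06% in chondrocyte-like, 4.31% in osteoblast-like, 4.78% in glia-like, 5.48% in endothelial-like, 5.89% in keratinocyte-like, 5.99% in macrophage-like, 7.96% in mesenchyme-like and 12.5% in mural-like cells. These 12 were Amotl2 in mesenchyme-like, keratinocyte-like and osteoblast-like cells, Ccn1 in chondrocyte-like, osteoblast-like, mural-like and simple nasal epithelium-like cells, Ccn2 in chondrocyte-like cells, Crim1 in endothelial-like, mural-like and macrophage-like cells, and Ptpn14 in keratinocyte-like cells. Without overlap, 3 of 10 targets (Ankrd1, Amotl2 and Ptpn14) were lower in both mutants over all cells and 1 (F3) higher, against 13.0% and 24.9% of all genes. The median log2 change of the targets over all cells was -0.16, where that of all genes was 0.00, and in mesenchyme-like cells -0.18 over the 9 that passed the filter, where that of all genes was also 0.00. With 2 libraries a group, an exact permutation test cannot go below p = 0.333, so only the fits across all genes were used. The labels do not say whether the 2 libraries of a group came from separate animals or litters, so p-values measure the spread between these libraries.

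**Figure D3:**
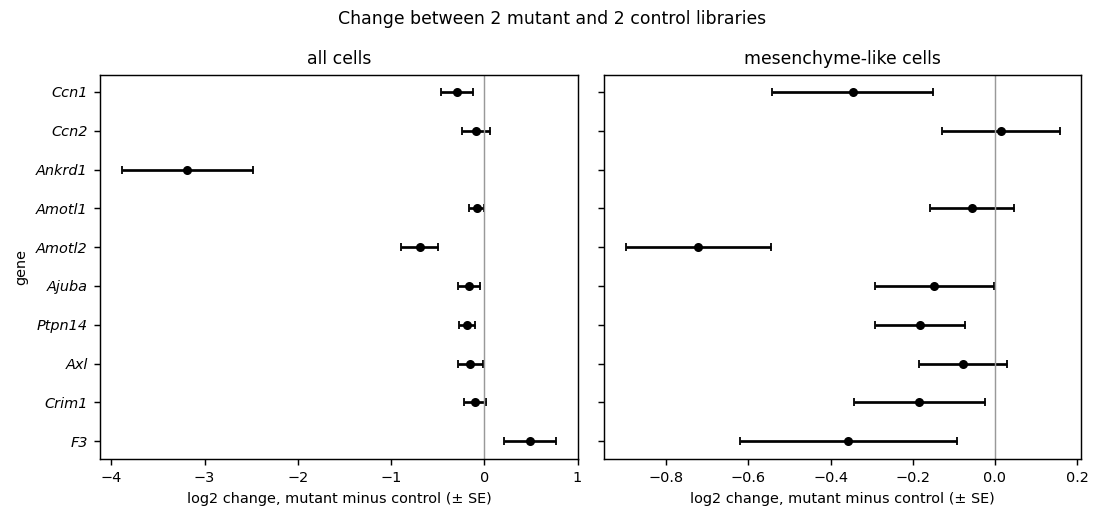
Log2 change (horizontal axis, mutant minus control, bars are ± SE of the edgeR fit, 2 against 2 libraries) of the 10 targets over all cells and of the 9 tested in mesenchyme-like cells. The horizontal scales of the panels differ. Amotl2 lies at -0.69 and -0.72, and no target passes the adjusted threshold.

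The targeted genes themselves were close between the groups. Yap1 was at 65.0, 65.2, 56.4 and 56.0 CPM over all cells, lower in both mutants, with a log2 change of -0.25 ± 0.08 (edgeR adjusted p 0.909). In the same comparison Wwtr1 was at 118, 145, 123 and 132 CPM and the groups overlapped. In glia-like cells, which the Sox10-Cre lineage includes, Yap1 rested on 24, 14, 17 and 9 UMIs. Since reads come from transcript ends, a transcript with its floxed exons removed may still be counted, and these levels say nothing of recombination.

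Amotl2 was lower in both mutant libraries over all cells and in 7 of 9 types. It measured 52.2 and 77.8 CPM in controls against 39.9 and 42.6 CPM in mutants over all cells, a log2 change of -0.69 ± 0.20 (edgeR adjusted p 0.909). In mesenchyme-like cells it measured 55.9 and 83.7 against 42.5 and 44.2 CPM. Both mutants lay below both controls there, and the log2 change was -0.72 ± 0.18, with an unadjusted p of 0.0038 and an adjusted p of 0.411. Among all genes tested in mesenchyme-like cells 14.9% were lower in both mutants without overlap. The difference was dependent on control 2 for its size. Without control 2 the log2 change was -0.40, and without control 1 it was -0.99. Without mutant 1 it was -0.71 and without mutant 2 -0.74. It passed with no filter on low counts (edgeR adjusted p 2.5e-07) and with DESeq2 (adjusted p 0.030). With the replicate number as a block it did not (edgeR adjusted p 0.064). Shares of all genes that passed under these settings are not given, so these passes are not read as a result about Amotl2. Thinned to 2000 UMIs a cell, 9.95, 13.4, 8.60 and 7.99% of mesenchyme-like cells had an Amotl2 UMI, against 28.7, 37.3, 27.8 and 19.6% unthinned.

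The same order of libraries returned in other types. In keratinocyte-like cells Amotl2 was at 56.0 and 99.6 CPM in controls against 39.2 and 39.7 CPM in mutants, a log2 change of -0.90 ± 0.27 (edgeR adjusted p 0.710; 0.049 with the replicate number as a block, 0.0011 with no filter). Without control 1 that change was -1.37 and without control 2 -0.49. In osteoblast-like cells it was at 40.3 and 54.1 against 28.4 and 31.8 CPM, and in chondrocyte-like cells at 78.6 and 120 against 60.2 and 73.0 CPM. Simple nasal epithelium-like cells (48.1 and 50.01 against 40.4 and 40.7 CPM), mural-like cells (26.8 and 60.04 against 8.84 and 24.6 CPM, 37 UMIs in all) and macrophage-like cells (12 UMIs in all) completed, with mesenchyme-like cells, the 7 of 9 types in which both mutants lay below both controls. In simple nasal epithelium-like cells the log2 change of -0.26 ± 0.21 came to -0.051 when cells passing several gates were left out. By type, the share of all tested genes lower without overlap was 18.4% in keratinocyte-like, 12.4% in osteoblast-like, 13.7% in chondrocyte-like, 16.8% in simple nasal epithelium-like, 20.2% in mural-like and 18.9% in macrophage-like cells. The types of a library share its handling and are not independent of each other. In the other 2 types the groups overlapped. Endothelial-like cells held 48.7 and 51.7 against 53.5 and 43.3 CPM, and glia-like cells 47.8 and 71.4 against 24.1 and 73.9 CPM, from 59 UMIs in all.

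Since the mesenchyme of the nose has regional populations, mesenchyme-like cells were also split, after the data had been seen, by a UMI of a regional transcription factor or marker. The 6 sets share cells, since 33.7 to 39.8% of the cells in a set were in several, so they are not separate observations. Amotl2 was lower in both mutants in 5 of the 6. With Shox2 it was at 55.5 and 80.2 CPM in controls against 44.1 and 42.4 CPM in mutants, and with Osr1 at 67.1 and 91.7 against 43.7 and 50.7 CPM. Cells with Pou3f4, with Pax9 but no Shox2, and with Foxl2 or Agtr2 showed the same order, and cells with Itgbl1 overlapped, at 57.4 and 78.7 against 53.4 and 62.5 CPM. In cells with Pax9 but no Shox2, Ccn2 was at 24.4 and 21.2 CPM in controls against 50.7 and 41.6 CPM in mutants. Ccn1, Axl and F3 (22 UMIs in all) were also higher in both mutants in that set, and Amotl2 and Ptpn14 lower. Ccn2 overlapped in the other 5 sets. Ptpn14 was lower in both mutants in 4 of the 6 sets and higher in both in 1. Among all genes tested in mesenchyme-like cells, those lower in both mutants were 12.5% with Shox2, 13.0% with Pax9 but no Shox2, 15.7% with Osr1, 12.7% with Pou3f4, 13.6% with Foxl2 or Agtr2 and 15.3% with Itgbl1. In the same order, those higher in both were 24.4%, 18.4%, 23.4%, 21.1%, 23.8% and 16.3%. These splits carry no test.

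**Figure D4:**
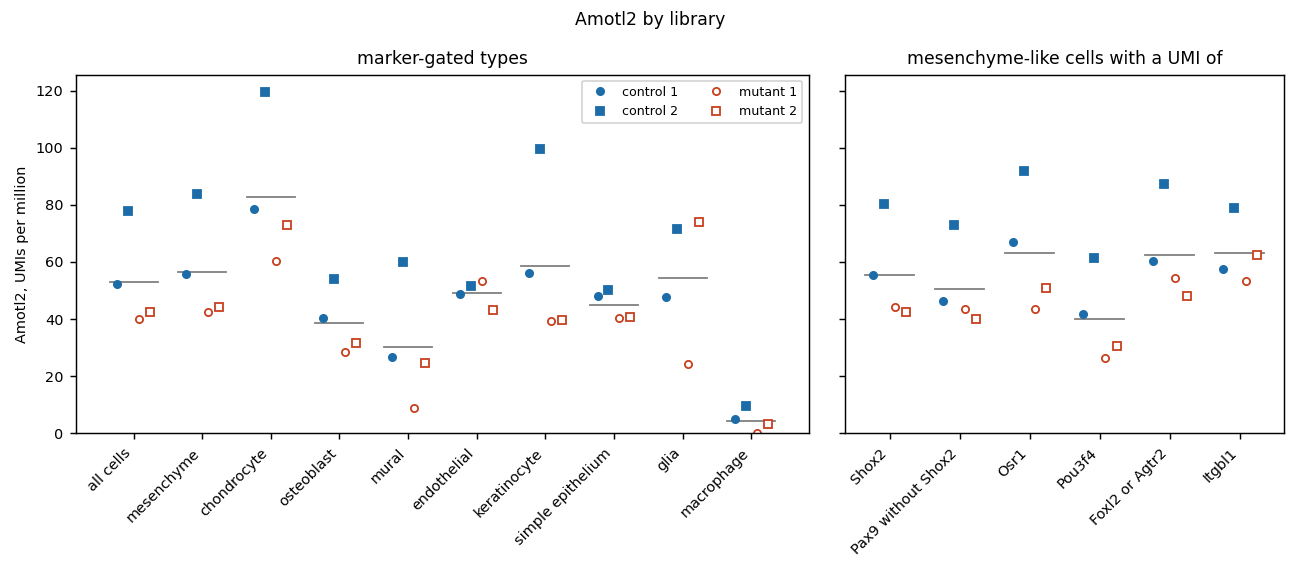
Amotl2 level (vertical axis, CPM, linear from 0) over all cells and in 9 types (left) and in 6 sets of mesenchyme-like cells that hold a UMI of the gene named (right), with 1 point per library and a line at the mean of the 4 libraries. Open mutant symbols lie below both filled control symbols in 7 of 9 types and 5 of 6 sets, and control 2 is the highest library in most of them.

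Ccn1 and Ccn2 were lower in both mutants in chondrocyte-like cells. In chondrocyte-like cells Ccn2 was at 134 and 192 CPM in controls against 75.3 and 109 CPM in mutants, a log2 change of -0.80 ± 0.25 (unadjusted p 0.0083, edgeR adjusted p 1.00). Ccn1 there was at 270 and 470 against 258 and 232 CPM, -0.62 ± 0.24 on the log2 scale, with the same adjusted p. Without control 1 the log2 changes were -1.05 for Ccn2 and -0.99 for Ccn1. Without control 2 they stood at -0.54 and -0.19. Of the 8 targets tested in chondrocyte-like cells, 5 were lower in both mutants without overlap, against 13.7% of all genes. In the vessels Ccn1 lay higher in both mutants. Mural-like cells had 150 and 164 CPM in controls against 243 and 233 CPM in mutants (log2 change 0.60 ± 0.23, adjusted p 0.273), and endothelial-like cells 120 and 97.7 against 172 and 142 CPM (0.47 ± 0.23, adjusted p 0.916). In simple nasal epithelium-like cells it was at 163 and 126 against 239 and 177 CPM. In these 3 types 22.0%, 18.3% and 18.5% of all tested genes were higher in mutants without overlap. Summed immediate early genes were also higher in both mutants in mural-like (2844 and 3322 against 3504 and 4345 CPM) and simple nasal epithelium-like cells, and their part in the Ccn1 values was not tested. In mesenchyme-like cells, which held 63.3% of Ccn1 UMIs, it was at 179, 284, 178 and 196 CPM, so that control 2 stood alone above the other 3 libraries. There the change was -0.35 ± 0.20 (edgeR adjusted p 0.687), and it was -0.64 without control 1 and 0.02 without control 2.

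Crim1 also lay higher in both mutants in the vessels. Endothelial-like cells held 120 and 125 CPM in controls against 203 and 181 CPM in mutants, a log2 change of 0.62 ± 0.22 (unadjusted p 0.013, edgeR adjusted p 0.727). Mural-like cells held 103 and 128 against 159 and 178 CPM (0.57 ± 0.26, adjusted p 0.387), and macrophage-like cells 56.1 and 64.9 against 24.8 and 43.5 CPM (-0.77 ± 0.32, adjusted p 0.80). Whether changes differed between types was tested for 4 pairs of types: glia-like with mesenchyme-like, glia-like with endothelial-like, mesenchyme-like with endothelial-like and mesenchyme-like with keratinocyte-like cells. None of 35 such interaction tests of targets passed, against 0.214% of all genes' tests, and 3 had an unadjusted p under 0.05. By pair, in the order given, 0.19%, 0.212%, 0.46% and 0.0% of all genes passed, and 3.88%, 4.58%, 4.95% and 4.79% had an unadjusted p under 0.05. The smallest was Crim1, whose change in mesenchyme-like minus that in endothelial-like cells was -0.74 ± 0.25 (unadjusted p 0.0024, adjusted p 0.240), followed by Ccn1 for the same pair at -0.71 ± 0.26 (adjusted p 0.389). The third was Ccn2 for glia-like minus endothelial-like cells, at -1.93 ± 0.91 (adjusted p 1.00).

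F3 and Ankrd1 over all cells are given beside the shares of the cells that hold them. In sums over all cells, fewer cells of a type and less RNA per cell cannot be told apart. F3 was at 20.5, 10.98, 24.8 and 21.0 CPM over all cells (log2 change 0.49 ± 0.28, edgeR adjusted p 0.909). Simple nasal epithelium-like cells were 3.26, 1.29, 3.97 and 3.38% of the libraries, lowest where F3 was lowest. Without control 1 the F3 change was 1.01, and without control 2 it was 0.13. Within simple nasal epithelium-like cells the F3 change was 0.43 ± 0.20 (adjusted p 1.00), with both mutants above both controls. Ankrd1 was at 0.62, 1.42, 0.07 and 0.15 CPM over all cells, from 22, 28, 2 and 4 UMIs, where muscle-like cells were 0.64, 0.81, 0.47 and 0.26% of the libraries. The 2 and 4 UMIs of the mutants are too few to order them, and the part of these cell shares in the Ankrd1 values was not tested. Within the muscle gate the ratio of mutant to control counts, scaled by total UMIs, was 0.219, as given above. Over all cells the ratio scaled in the same way was 0.118 (exact 95% interval 0.041 to 0.276, counting error only). There edgeR gave an unadjusted p of 0.0046 and an adjusted p of 0.909.

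Ajuba was lower in both mutants without overlap in 5 of 9 types, Amotl1 in 4, Axl in 3 and Ptpn14 in 1. Of these 4 genes Axl alone was higher in both in any type (1 of 9). By type, the share of all tested genes lower without overlap ran from 12.4% (osteoblast-like) to 20.2% (mural-like cells). The share higher ran from 15.8% (macrophage-like) to 26.0% (mesenchyme-like cells). The counts include types in which a gene did not pass the filter, as Ajuba in glia-like cells. Of the types counted, Ajuba in glia-like and macrophage-like cells and Amotl1 in macrophage-like cells rested on 16, 7 and 5 UMIs. Ptpn14 in keratinocyte-like cells was at 133 and 151 CPM in controls against 99.8 and 115 CPM in mutants. Its log2 change there was -0.40 ± 0.15 (edgeR adjusted p 0.810), and -0.53 without control 1. Ajuba in that type was at 53.4 and 54.7 against 49.3 and 46.1 CPM, without overlap. Axl in mural-like cells, its highest type, was at 103 and 84.1 against 75.1 and 70.6 CPM (-0.39 ± 0.32, adjusted p 0.727). Amotl1 over all cells was at 57.9, 54.0, 54.6 and 54.0 CPM, a change of -0.08 ± 0.08. Of glia-like cells, 3 targets passed the filter, Ccn1, Amotl1 and Amotl2, and the groups overlapped for each. Ccn1 in glia-like cells was at 97.9, 135, 80.4 and 142 CPM, from 128 UMIs in 43, 28, 32 and 21 cells, so that its change of -0.20 ± 0.35 could not be told from none at this depth.

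Immediate early genes respond fast to stimuli that include handling of cells, and their order of libraries differed from type to type. In mesenchyme-like cells the immediate early genes Fos (462, 799, 395 and 651 CPM), Egr1 (168, 317, 127 and 193 CPM) and Nr4a1 (54.6, 113, 46.1 and 81.8 CPM) were each highest in control 2. Of 14 immediate early and stress genes 9 were highest in control 2 there, as were 8 of the 10 targets, against 28.3% of all genes tested. The 12 such genes other than the heat shock genes summed to 1839 and 2728 CPM in controls against 1578 and 2314 CPM in mutants, which overlap. In keratinocyte-like cells that sum was 5233, 6744, 4703 and 5754 CPM, and in chondrocyte-like cells 2266, 4092, 3238 and 2942 CPM, again highest in control 2 and overlapping. In mural-like cells it was 2844, 3322, 3504 and 4345 CPM and in simple nasal epithelium-like cells 3905, 4172, 5237 and 4662 CPM, higher in both mutants, as Ccn1 was in these types. With the heat shock pair, 5 of 13 genes tested in mural-like and 5 of 14 in simple nasal epithelium-like cells had an unadjusted p under 0.05 as higher and none as lower. In endothelial-like cells the sum was 2391, 2050, 2207 and 2628 CPM and the groups overlapped. In mesenchyme-like cells the heat shock genes Hspa1a (14.6 and 4.33 against 45.2 and 46.8 CPM) and Hspa1b (11.5 and 3.52 against 36.2 and 36.5 CPM) were higher in both mutants. Their log2 changes were 2.18 ± 0.38 and 2.17 ± 0.37 (edgeR adjusted p 0.262 and 0.233), and both passed in keratinocyte-like cells (adjusted p 0.014 and 0.0072). Btg2, an immediate early gene, passed in mural-like cells, with 172 and 144 CPM in controls against 278 and 384 CPM in mutants (adjusted p 0.044). In mesenchyme-like cells mutant 2 was second highest for Fos, Egr1 and Nr4a1, as for Ccn1, and stood at 44.2 CPM for Amotl2, close to mutant 1. The part of immediate early and heat shock genes in the values of Ccn1 and Amotl2 was not tested.

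**Figure D5:**
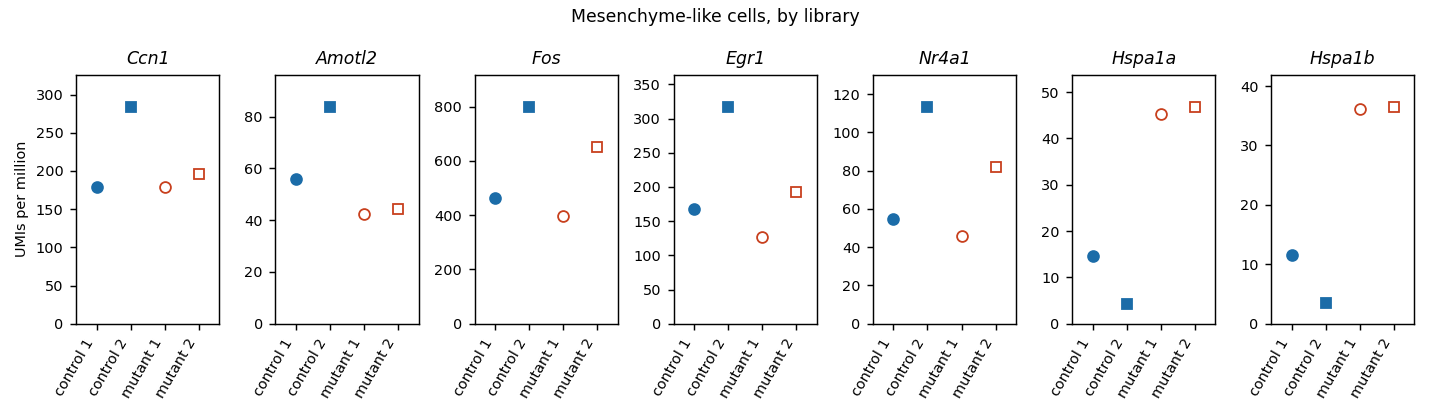
Levels in mesenchyme-like cells (vertical axis, CPM, linear from 0, a separate scale per gene) of the targets Ccn1 and Amotl2, the immediate early genes Fos, Egr1 and Nr4a1 and the heat shock genes Hspa1a and Hspa1b, with 1 point per library. Control 2 is highest for the first 5 genes, and both mutants are highest for the heat shock genes.

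Other genes of the conserved YAP and TAZ signature gave 1 call between mutants and controls. In the interaction tests, 1 of 13 such genes passed for mesenchyme-like minus endothelial-like cells (edgeR adjusted p 0.0017), where 0.46% of all genes passed. That gene is not named here, and its test used the same endothelial-like sums as the Foxf2 call below. None passed for the other pairs of types. Of 14 such genes all were tested over all cells and in mesenchyme-like cells, where none passed and the median log2 changes were -0.04 and -0.05. The lowest changes in mesenchyme-like cells were those of Myof, a membrane repair protein (-0.45 ± 0.15, edgeR adjusted p 0.518), and Ccdc80 (-0.22), and the highest those of Igfbp3, a binding protein of insulin-like growth factors (0.28 ± 0.15), and Tgfb2 (0.26). Over all cells Myof (-0.38) and Foxf2 (-0.33) were lowest, and Nuak2 (0.38) and Igfbp3 (0.36) highest. In endothelial-like cells Foxf2, a forkhead factor of vascular and mesenchymal cells, passed with 20 and 16 UMIs in controls and 0 and 1 in mutants (adjusted p 0.036), in a comparison where 0.107% of genes passed. The call was lost with DESeq2 and after removal of likely doublets. Its ratio of mutant to control counts, scaled by total UMIs, was 0.0268 (exact 95% interval 6.6e-04 to 0.159, counting error only). Of 16 genes of the Hippo pathway none passed over all cells or in mesenchyme-like cells, with median log2 changes of -0.08 in both and Tead4 lowest at -0.46 and -0.38.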

How the data were processed

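Noses were dissociated with papain and collagenase and the cells frozen before loading, per the labels' protocols. Cell-by-gene matrices of raw UMI counts were deposited by the authors. The file headers name cellranger 8.0.1, whereas the submitters' processing notes name Cell Ranger 4, Seurat 4.3.0 and build mm10. Here cells were kept if they held 500 genes or more and no more than 10% of UMIs from mitochondrial genes, and were typed by marker gates (at least 3 markers and 10 marker UMIs per 10000 UMIs), whose thresholds were set after marker levels, but not target levels, were seen. Doublets (Scrublet in scanpy 1.11.5) were kept and their removal tried as an alternative. Counts were summed per library and type and compared by the quasi-likelihood test of edgeR 4.0.16 with TMM scaling, filterByExpr and Benjamini-Hochberg adjustment over all genes, after tests on simulated data, with DESeq2 1.42.0 as an alternative in R 4.3.3. The 10 targets and all lists were chosen with earlier results of these data known.

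Named genes were the 10 targets, the 3 genes most like each (1 of these is not reported here), Yap1, Wwtr1, genes of other lists that passed, and at most the 2 largest and 2 smallest changes of a list over all cells and in mesenchyme-like cells; handling and heat shock genes shown by library were chosen after their values were seen. Depths in cells kept ranged from 19767873 to 35331450 UMIs, and intervals cover counting error only. Sequencing was shared by 2 providers, per the labels' protocols, without saying which library went where.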

Additional observations from a re-analysis of the deposited data

How the results depend on the processing

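Over all cells no target passed under any setting except without control 1, where 2 did (range 0 to 2 when a library was left out). Within types, where no target passed, 1 passed with DESeq2, 2 with no filter on low counts and 1 with the replicate number as a block, and 0 to 7 when a library was left out, the 7 without control 1. With 1 library left in a group, that library was assumed to vary like the others. Shares of all genes that passed under these settings are not given. Counts of targets and of other signature genes under them are therefore not read as results about these genes. Contrasts between types numbered 43 to 54 when a library was left out, against 54, and interactions stayed at 0. Other signature genes, with 1 call, gave 0 with DESeq2, 0 with doublets removed, 5 with no filter, 4 with the replicate block, and 1 to 10 when a library was left out.

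Direction changed for Ccn2 in mesenchyme-like cells with doublets removed (-0.015) and with a stricter gate (-0.0067). When a library was left out, log2 changes that crossed 0 ranged as follows. In mesenchyme-like cells they were -0.64 to 0.024 for Ccn1, -0.18 to 0.22 for Ccn2, -0.15 to 0.031 for Amotl1, -0.17 to 0.021 for Axl and -0.42 to 0.089 for Crim1. The lowest of these Crim1 values was that without control 1. Over all cells they were -0.29 to 0.13 for Ccn2, -0.30 to 0.013 for Axl and -0.24 to 0.048 for Crim1. For Amotl2 they were -0.19 to 0.025 in endothelial-like and -1.32 to 0.24 in glia-like cells. Of 914 recomputed values of targets, 829 kept their direction and side of the threshold, 15 newly passed, 57 no longer passed and 13 reversed.

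Across all genes tested, same-numbered libraries showed little shared deviation, and a pairing that moves only part of the genes was not tested. Deviations of same-numbered libraries correlated at -0.02 over all cells and from -0.10 (chondrocyte-like) to 0.11 (glia-like) within types. In chondrocyte-like cells the crossed pairing, chosen after seeing the data, called 8 genes against 2 with the same numbers, and no target in either. The exclusive gates and the controls-only fit were also chosen after seeing the data. Glia-like sums are shallow, which limits what can be detected there.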
